A study of Mus musculus with 48 samples.

Results

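Ruxolitinib, named jak12i in the sample titles, was compared with a gavage vehicle in mouse skin at week 6. The arrays were chosen by title: the 5 week 6 jak12i arrays and the 5 week 6 arrays of mice given phosphate-buffered saline (PBS) by gavage, 10 of the 48 arrays of the series. The series tested inhibitors of the interleukin-15 (IL-15) pathway against alopecia areata, an autoimmune hair loss, in C3H/HeJ mice. Every array used here carries the labels C3H/HeJ, skin and total RNA, and no genotype or allele beyond the strain is named. Jak12i is known from the study as ruxolitinib, an inhibitor of the Janus kinases (JAK) JAK1 and JAK2, and the weeks of treatment are labelled 5/6 for both groups. Dose, age, sex, grafting of these animals and the time of day at which skin was taken are not given in the sources used here, and no label ties an agent to a route. For comparison, week 6 also held jak3i (n = 5), known from the study as tofacitinib, and PBS by pump (n = 3), and week 13 held jak12i (n = 3) and PBS gavage (n = 3). The design text calls samples biological replicates without naming separate animals, so p-values measure a spread between arrays. For limma that spread was pooled over the 47 arrays placed in a group, and not taken from the 10 arrays alone.

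Janus kinases sit on the inner side of cytokine receptors and, once a cytokine binds, phosphorylate STAT transcription factors that move to the nucleus. JAK1 pairs with JAK3 at receptors for IL-2 and IL-15, which feed T cells and natural killer cells, with JAK2 at the receptor for interferon gamma and with TYK2 at the receptor for type I interferon. Interferon signals raise the genes that present antigen to T cells, and a hair follicle that presents antigen in this way becomes a target of CD8 T cells in alopecia areata. Skin cells also carry a circadian clock, in which the activators Clock, Npas2 and Arntl drive the Per and Cry genes, whose proteins then switch the activators off.

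The arrays were checked before the comparison, and 3 of them stood apart. In jak12i replicates 2 and 3 the mean log2 signal of 18 keratin associated protein genes, which build the hair shaft, was 11.75 and 11.55, against 5.61 to 5.82 in the other jak12i arrays and 5.48 to 7.27 in the PBS gavage arrays. These 2 arrays were also the most alike of 66 pairs of arrays of one group, with an SD of their difference of 0.151 log2 units, the next pair having 0.168. PBS gavage replicate 5 had a mean of 7.13 over 26 skeletal muscle genes, against 11.96 to 12.38 in the jak12i arrays and 11.19 to 12.23 in the other PBS gavage arrays, and it had the highest interferon and cell division signals. The keratinocyte gene Krt14 averaged 12.88 ± 0.22 in jak12i skin and 12.97 ± 0.14 in PBS gavage skin (SD, n = 5 each), high in every array. The groups also differed in technical values. The 75th percentile of the log2 signals was 8.221 to 8.253 in jak12i arrays and 8.286 to 8.349 in PBS gavage arrays, and the interquartile range was 2.714 to 2.739 in jak12i arrays and 2.809 to 2.884 in PBS gavage arrays. The control probe set in the middle of 18S ribosomal RNA read 11.746 to 11.984 in jak12i arrays and 12.345 to 12.888 in PBS gavage arrays. Each of these 3 values separated the groups fully (exact permutation test, two-sided, p = 0.007937, the smallest that 5 against 5 arrays allow, 0.01786 after adjustment over 9 such values), and their part in the results below was not tested. The other 18S probe sets overlapped, at 12.218 to 12.42 in jak12i arrays and 12.368 to 12.749 in PBS gavage arrays for the 5' one and at 11.104 to 11.43 in jak12i arrays and 11.24 to 11.71 in PBS gavage arrays for the 3' one. The 3' minus 5' difference of beta actin, which grows as RNA degrades, was 0.765 to 1.074 in jak12i arrays and 0.929 to 1.603 in PBS gavage arrays, and that of Gapdh 0.051 to 0.252 in jak12i arrays and 0.15 to 0.577 in PBS gavage arrays, PBS gavage replicate 5 being the highest in both.

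**Figure D1:**
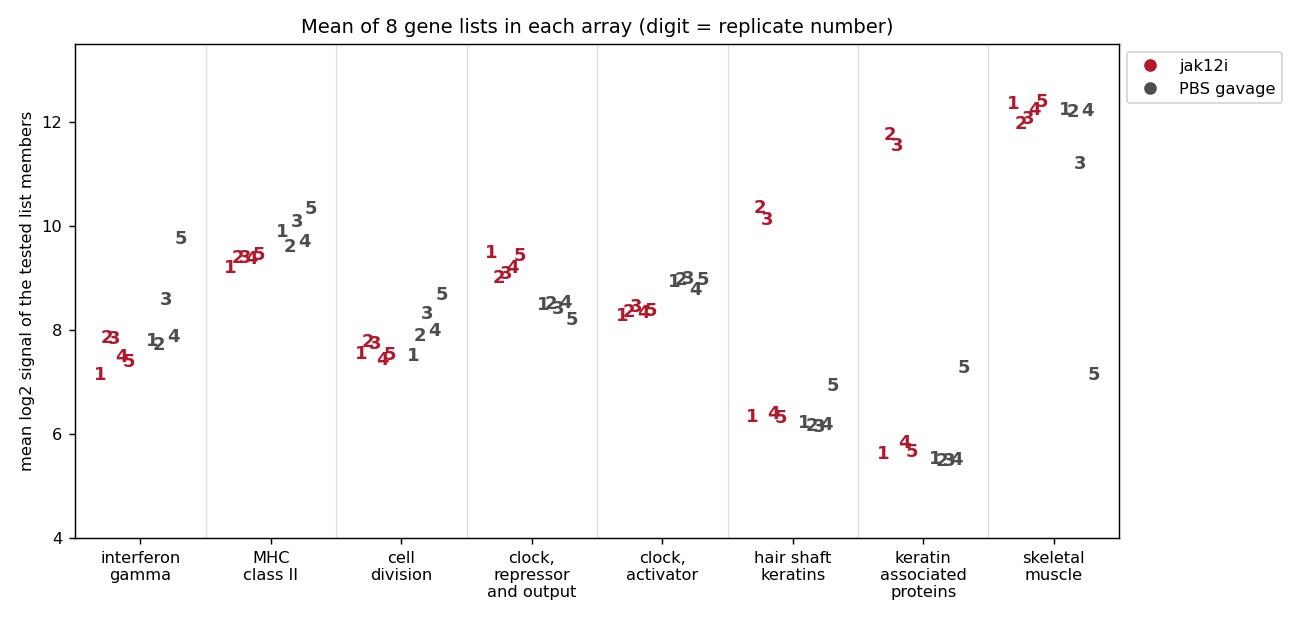
Mean log2 signal of 8 gene lists in each of the 10 arrays (vertical axis), jak12i left of PBS gavage within each list, each digit being the replicate number. Jak12i replicates 2 and 3 stand above all others for hair shaft keratins and keratin associated proteins, and PBS gavage replicate 5 stands at 7.13 for skeletal muscle.

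Of 13650 genes tested, 203 were higher in jak12i skin (1.49% of those tested) and 1105 lower (8.1%), 1308 in all (9.58%), at an adjusted p of 0.05 in limma. The arrays of the groups did not overlap for 1105 genes (8.1%), and the median change of all genes was -0.03 on the log2 scale. The excess of falls depended on the scaling. The share of called genes that were higher was 15.5% as deposited, 42.5% after quantile normalization of all arrays (412 higher and 557 lower) and 68.1% after each array was set to one median and interquartile range (1489 higher and 696 lower), which moved the median of all genes up by 0.10. Without PBS gavage replicate 5, 848 genes were called, without PBS gavage replicate 3 773, without jak12i replicates 2 and 3 709, and without all of jak12i replicates 2 and 3 and PBS gavage replicate 5 451. Changes below are log2 differences ± standard error (SE), jak12i minus PBS gavage, with limma's adjusted p over all 13650 genes, and "rose" or "fell" is used of called genes only. Counts within lists are to be read beside the shares of all genes, 1.49% called higher and 8.1% called lower. At an unadjusted p under 0.05 in limma, 1037 of all 13650 genes were higher and 2442 lower.

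The clearest rise was in the repressor and output arm of the circadian clock. Of its 13 genes, all tested, 9 rose, none fell and the median change was 0.56. The time of day at which skin was taken is not given. Treatment and time of collection therefore cannot be told apart for the clock genes, here or in the activator arm below. Per2, a repressor that pairs with Cry proteins, had log2 signals of 8.40, 7.57, 7.67, 7.65 and 8.49 in jak12i arrays, against 5.87, 5.83, 6.20, 6.07 and 6.03 in PBS gavage arrays. Per3, its relative, had 9.91, 9.38, 9.54, 9.74 and 9.96 in jak12i arrays, against 7.93, 7.90, 7.90, 8.04 and 7.21 in PBS gavage arrays. Every jak12i array was above every PBS gavage array for both genes. Per2 rose by 1.95 ± 0.26, a difference of 3.88-fold (adjusted p = 7.11e-06), and Per3 rose by 1.91 ± 0.32 (adjusted p = 0.000146). Dbp, a transcription factor that the clock drives as an output, read 12.06, 11.39, 11.54, 11.92 and 11.86 in jak12i arrays and 10.21, 10.18, 9.88, 10.56 and 9.62 in PBS gavage arrays. Its groups did not overlap either, and it rose by 1.66 ± 0.43 (adjusted p = 0.00971). Tef, of the same family as Dbp, read 11.24, 10.90, 10.91, 11.11 and 11.18 in jak12i arrays and 10.23, 10.48, 10.05, 10.45 and 9.81 in PBS gavage arrays, also without overlap, and rose by 0.86 ± 0.20 (adjusted p = 0.00509). Hlf, the remaining member of that family, rose by 0.64 ± 0.18 and Nr1d2, a nuclear receptor that represses Arntl, by 0.56 ± 0.16. The repressors Cry1 and Cry2 rose by 0.58 ± 0.11 and 0.38 ± 0.11, but with overlap. Cry1 read 8.36, 8.32, 8.37, 7.92 and 8.30 in jak12i arrays and 7.62, 7.60, 8.01, 7.53 and 7.62 in PBS gavage arrays, and PBS gavage replicate 3 lay above jak12i replicate 4. Ciart, a further repressor, rose by 0.54 ± 0.18 at an adjusted p of 0.0459. Per1 was not called: it read 9.96, 8.18, 8.50, 8.43 and 9.71 in jak12i arrays and 8.67, 8.65, 8.48, 8.38 and 7.97 in PBS gavage arrays, so only jak12i replicates 1 and 5 were far above the rest. The repressors Nr1d1, Bhlhe40 and Bhlhe41 stood at 0.29 ± 0.18, 0.46 ± 0.15 and 0.27 ± 0.14 and were not called either.

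The activator arm moved the other way. Of its 6 tested genes 3 fell, all 6 changes were below 0 and the median was -0.51. Arntl, the obligate partner of Clock, read 7.67, 8.32, 8.10, 7.90 and 7.83 in jak12i arrays and 9.19, 9.29, 9.20, 8.90 and 9.03 in PBS gavage arrays, and fell by 1.16 ± 0.19 (adjusted p = 0.000113). Npas2, which can stand in for Clock, read 6.55, 6.40, 6.50, 6.95 and 6.67 in jak12i arrays and 7.79, 7.49, 7.76, 7.58 and 7.76 in PBS gavage arrays, and fell by 1.06 ± 0.25 (adjusted p = 0.00479). Clock itself read 8.91, 8.91, 9.15, 9.47 and 9.36 in jak12i arrays and 9.86, 10.12, 9.68, 9.82 and 9.81 in PBS gavage arrays, and fell by 0.70 ± 0.11 (adjusted p = 4.92e-05). None of these 3 had an overlap between groups. Arntl2, Nfil3 and Rora, at -0.32 ± 0.14, -0.14 ± 0.33 and -0.03 ± 0.12, were not called. Per2, Per3, Dbp, Tef, Cry1, Arntl, Clock and Npas2 kept their calls in all 10 fits that left out 1 array. The number of repressor and output genes called higher was 6 without PBS gavage replicate 5, 8 without jak12i replicates 2 and 3, 6 without these 3 arrays and 3 (Per2, Per3 and Cry1) without PBS gavage replicates 3 and 5, where the median was 0.53. Dbp stood at 1.74 (adjusted p = 0.0597) without the 3 arrays and at 1.44 (adjusted p = 0.11) without PBS gavage replicates 3 and 5, where Tef was at 0.68 (adjusted p = 0.103). Npas2 was at -0.93 (adjusted p = 0.0941) without the 3 arrays, and in the other 3 settings 3 activator genes were called lower. Calls were lost for Cry2 without jak12i replicate 1 or PBS gavage replicate 5 (changes of 0.31 to 0.46 over the 10 fits, adjusted p up to 0.0847), for Hlf without jak12i replicate 1 or 5 or PBS gavage replicate 4 (adjusted p up to 0.0624), for Nr1d2 without jak12i replicate 5 or PBS gavage replicate 3 or 5 (adjusted p up to 0.0896), and for Ciart in 9 of the 10 fits (adjusted p up to 0.131). With PBS pump as the control, where 19.4% of all genes were called higher and 9.7% lower, 9 genes of the repressor and output arm were called higher, and in the activator arm 2 were called higher and 1 lower. Some probe sets of these genes went apart. The other Per2 probe set stood at 0.45 ± 0.24 and was not called in limma (adjusted p = 0.23, over all probe sets). Its means were 7.36 in jak12i arrays and 6.91 in PBS gavage arrays, so the size of the Per2 rise depends on the probe set. Of the 5 other Per3 probe sets with signal all were positive, at 0.16 to 1.05, but another Npas2 probe set stood at 0.17 and 1 of Tef at -0.03. The other Dbp probe set was called higher at 1.93, and the other Clock probe sets were called lower at -0.56 and -0.69.

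**Figure D2:**
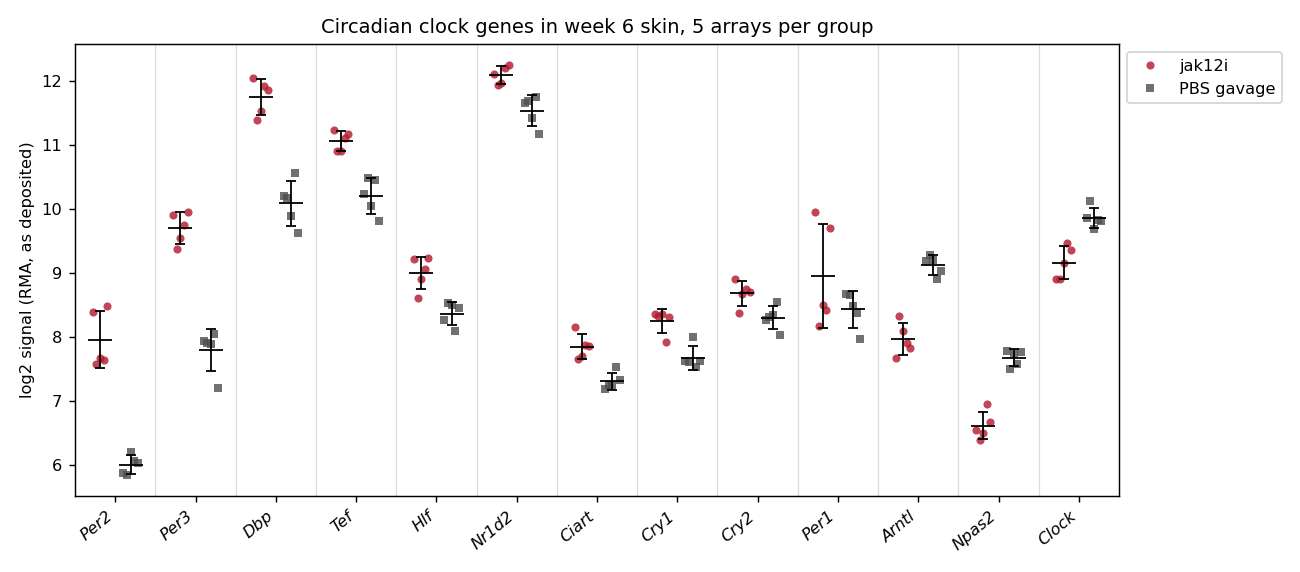
Log2 signal (RMA, vertical axis) of 13 circadian clock genes in each array, jak12i (red circles) left of PBS gavage (grey squares), with mean and SD (n = 5 each). Per2, Per3 and Dbp lie higher in all jak12i arrays, Arntl, Npas2 and Clock lower, and for Per1 the groups overlap.

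Clock proteins read the DNA at short motifs, so the 300 bases around the start of each gene (250 before to 50 after, RefSeq, build GRCm38.p6) were searched on both strands. The E-box CACGTG, to which Clock and Arntl bind, stood in 5 of the 11 repressor and output genes with a promoter (45.5%), in 0 of 6 activator genes, in 11.3% of 10909 tested genes and in 7.15% of all 32851 promoters. Of the 8 called repressor and output genes with a promoter 3 held an E-box, Cry1, Tef and Ciart. The D-box, TTATGTAA or TTACGTAA, to which Dbp, Tef and Hlf bind, stood in 1 of the 11 (9.09%), Per3, against 0.88% of tested genes and 1.06% of all promoters. The promoters are shown because they are those of called clock genes that hold a match, Tef having 2 starts, and capitals mark the E-box or D-box. A match is a description of the letters and not a site shown to be bound in this skin.
Per3, chr4:151044616-151044915, minus strand: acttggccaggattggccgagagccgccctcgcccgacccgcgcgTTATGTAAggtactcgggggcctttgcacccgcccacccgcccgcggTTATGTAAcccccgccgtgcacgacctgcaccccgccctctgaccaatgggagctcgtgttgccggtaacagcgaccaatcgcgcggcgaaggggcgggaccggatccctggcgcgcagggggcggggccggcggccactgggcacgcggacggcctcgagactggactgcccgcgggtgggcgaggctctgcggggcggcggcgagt
Tef, first start, chr15:81802423-81802722, plus strand: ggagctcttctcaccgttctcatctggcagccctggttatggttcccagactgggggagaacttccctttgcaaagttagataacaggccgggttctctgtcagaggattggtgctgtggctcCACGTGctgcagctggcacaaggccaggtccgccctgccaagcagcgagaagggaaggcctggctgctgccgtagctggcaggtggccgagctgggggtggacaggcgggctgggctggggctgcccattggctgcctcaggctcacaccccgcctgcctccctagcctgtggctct
Tef, second start, chr15:81811164-81811463, plus strand: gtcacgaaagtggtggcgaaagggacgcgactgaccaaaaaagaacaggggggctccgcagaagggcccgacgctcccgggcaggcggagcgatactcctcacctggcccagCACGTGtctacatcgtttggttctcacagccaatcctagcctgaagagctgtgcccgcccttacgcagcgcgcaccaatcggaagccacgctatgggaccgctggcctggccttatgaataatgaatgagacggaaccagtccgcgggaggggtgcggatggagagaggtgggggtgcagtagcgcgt
Ciart, chr3:95882179-95882478, minus strand: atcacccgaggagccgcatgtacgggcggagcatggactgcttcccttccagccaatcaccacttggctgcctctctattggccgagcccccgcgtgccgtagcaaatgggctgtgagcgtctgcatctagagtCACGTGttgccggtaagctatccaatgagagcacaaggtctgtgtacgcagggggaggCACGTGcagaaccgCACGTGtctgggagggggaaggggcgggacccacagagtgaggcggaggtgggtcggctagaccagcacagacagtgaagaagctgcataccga
Cry1, chr10:85185005-85185304, minus strand: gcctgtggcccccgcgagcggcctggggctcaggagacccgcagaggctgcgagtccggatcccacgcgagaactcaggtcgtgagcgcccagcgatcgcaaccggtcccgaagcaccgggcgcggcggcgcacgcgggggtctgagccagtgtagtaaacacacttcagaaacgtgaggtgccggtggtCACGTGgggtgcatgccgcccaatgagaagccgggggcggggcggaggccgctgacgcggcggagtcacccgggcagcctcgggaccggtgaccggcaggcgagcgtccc
Per3 held 2 D-boxes and no E-box, Ciart 3 E-boxes, and the other 3 promoters 1 E-box each. Neither motif stood in the windows of Dbp, Hlf, Nr1d2 and Cry2, and Per2 was not among the promoters searched.

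Genes of antigen presentation on major histocompatibility complex (MHC) class II fell. Of 14 tested genes 10 fell, none rose and the median change was -0.60. H2-Ob, a chain of the H2-O protein that restrains peptide loading in antigen-presenting cells, read 6.83, 6.82, 7.13, 7.41 and 7.15 in jak12i arrays, against 8.02, 7.98, 8.71, 7.77 and 8.91 in PBS gavage arrays. H2-DMa, a chain of the loading factor H2-M, read 8.04, 8.58, 8.45, 8.38 and 8.32 in jak12i arrays, against 8.99, 8.78, 9.59, 8.82 and 9.98 in PBS gavage arrays. Neither gene's groups overlapped. H2-Ob fell by 1.21 ± 0.18, 2.31-fold lower (adjusted p = 2.11e-05), and H2-DMa by 0.88 ± 0.14 (adjusted p = 9.99e-05). H2-Ab1, the class II beta chain, read 10.78, 11.01, 10.98, 11.12 and 11.06 in jak12i arrays and 11.51, 11.25, 11.71, 11.40 and 11.96 in PBS gavage arrays, and fell by 0.58 ± 0.10. Cd74, the invariant chain that guards the empty groove, read 10.28, 10.39, 10.34, 10.55 and 10.63 in jak12i arrays and 11.19, 10.66, 11.20, 10.89 and 11.52 in PBS gavage arrays, and fell by 0.66 ± 0.12 (adjusted p = 0.000447). In both genes the highest jak12i array stayed below the lowest PBS gavage array. H2-DMb2, H2-Eb1, H2-Ea and H2-Aa fell by 0.70 ± 0.12, 0.61 ± 0.12, 0.94 ± 0.24 and 0.34 ± 0.08, also without overlap. Cd86, a costimulatory ligand for T cells, fell by 0.61 ± 0.17 with overlap. All these calls except that of Cd86 held in the 10 fits that left out 1 array, and Cd86 lost its call without jak12i replicate 1 or 3 or PBS gavage replicate 5 (adjusted p up to 0.0869). The number of class II genes called lower was 8 without PBS gavage replicate 5, 9 without jak12i replicates 2 and 3, 6 without these 3 arrays and 5 without PBS gavage replicates 3 and 5. With PBS pump as the control 8 of the 14 were called lower, but H2-Ob at -0.49 (adjusted p = 0.0627) and H2-DMb2 at 0.08 (adjusted p = 0.719) were not.

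MHC class I presentation, which shows internal peptides to CD8 T cells, had 10 of 16 tested genes lower, none higher and a median of -0.44. Psmb9, a subunit of the immunoproteasome that cuts peptides, read 9.79 to 10.55 in jak12i arrays, against 10.58, 10.49, 11.48, 10.68 and 11.96 in PBS gavage arrays, and fell by 0.88 ± 0.20 (adjusted p = 0.00326) with a small overlap. Erap1, which trims the peptides, read 7.41, 7.47, 7.46, 7.36 and 7.40 in jak12i arrays and 7.80, 7.68, 8.09, 7.71 and 8.61 in PBS gavage arrays, and fell by 0.56 ± 0.13 (adjusted p = 0.00479). H2-K1, a class I heavy chain, read 10.24, 10.63, 10.63, 10.27 and 10.20 in jak12i arrays and 10.67, 10.52, 11.18, 10.94 and 11.44 in PBS gavage arrays, and fell by 0.56 ± 0.13 (adjusted p = 0.00526). For all 3 genes PBS gavage replicate 5 was the highest array and replicate 3 the next. The immunoproteasome subunits Psmb8 and Psmb10 fell by 0.69 ± 0.17 and 0.68 ± 0.18, the heavy chain H2-D1 by 0.42 ± 0.09, and Nlrc5, the transactivator of class I genes, by 0.64 ± 0.16. B2m, the light chain, was not called at -0.08 ± 0.05 (adjusted p = 0.37), and after median and interquartile range scaling it was called higher at 0.28 (adjusted p = 0.0362). The class I fall rested in part on 2 vehicle arrays: 5 genes were called without PBS gavage replicate 5 and 0 without replicates 3 and 5, when the median was -0.25. Psmb8 and Psmb10 lost their calls without PBS gavage replicate 5, at -0.46 and -0.45 (adjusted p = 0.0534 and 0.0709).

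**Figure D3:**
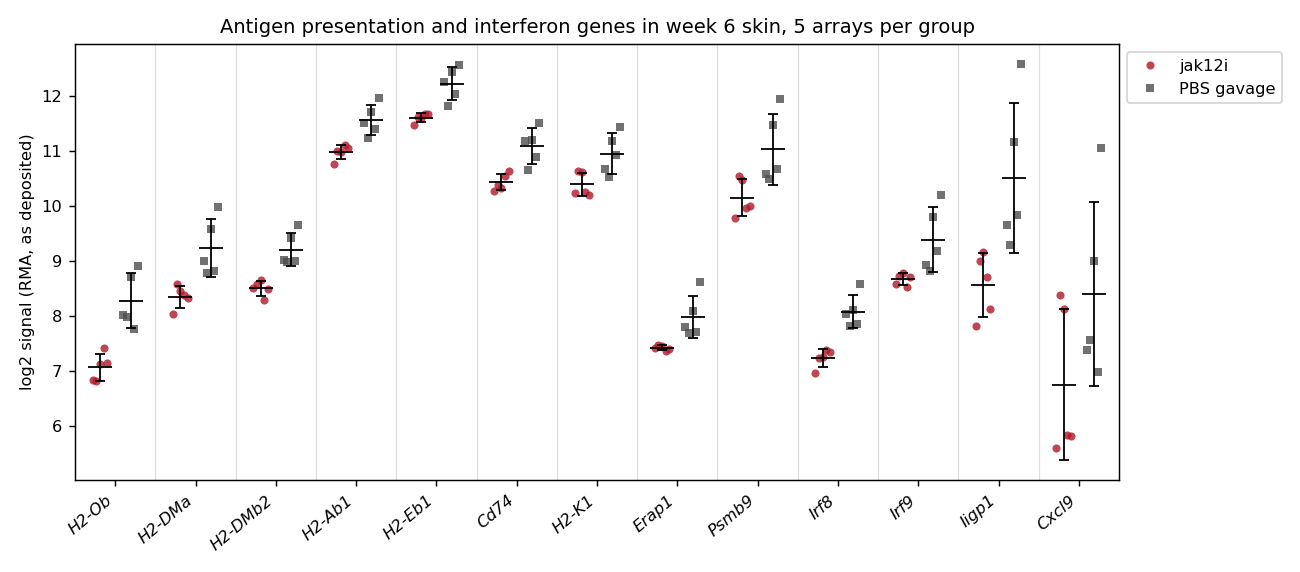
Log2 signal (RMA, vertical axis) of 13 antigen presentation and interferon genes in each array, jak12i (red circles) left of PBS gavage (grey squares), with mean and SD (n = 5 each). The class II genes and Irf8 separate the groups, whereas for Iigp1 and Cxcl9 most of the height of the PBS gavage group comes from 2 arrays.

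Among 21 tested regulators and targets of interferon gamma 5 fell, none rose and the median was -0.83. Irf8, a transcription factor of myeloid cells and an interferon target, read 6.96, 7.23, 7.24, 7.37 and 7.33 in jak12i arrays, against 8.03, 7.82, 8.11, 7.85 and 8.59 in PBS gavage arrays, without overlap, and fell by 0.85 ± 0.18 (adjusted p = 0.002). Iigp1, a GTPase that attacks vacuoles of intracellular parasites, read 7.81, 9.01, 9.17, 8.70 and 8.12 in jak12i arrays, against 9.65, 9.29, 11.17, 9.83 and 12.59 in PBS gavage arrays. It fell by 1.94 ± 0.57 (adjusted p = 0.0241), the largest fall among called genes without overlap when each gene is read from its probe set of highest signal, and the PBS gavage arrays themselves spanned more than 3 log2 units. The other Iigp1 probe set stood at -1.17 ± 0.56 and was not called in limma (adjusted p = 0.168, over all probe sets). Irf1, a transcription factor that interferon gamma induces, fell by 0.66 ± 0.18, and the GTPases Gbp2 and Ifi47 by 1.07 ± 0.33 and 1.23 ± 0.33, all with overlap. Cxcl9, a chemokine that draws T cells, read 5.60, 8.38, 8.13, 5.83 and 5.81 in jak12i arrays, against 7.38, 7.56, 8.99, 6.97 and 11.06 in PBS gavage arrays. Its change of -1.64 ± 0.57 was not called (adjusted p = 0.0601), and jak12i replicates 2 and 3 were above 3 of the PBS gavage arrays. Its relatives Cxcl10 at -0.51 ± 0.36 and Cxcl11 at -0.55 ± 0.36 were not called either, and Ifng itself, near background, stood at -0.13 ± 0.20. Without PBS gavage replicate 5, 1 of the 21 genes was called, Irf8 at -0.72, and without replicates 3 and 5 none was, with a median of -0.34. Irf8 was called in all 10 fits that left out 1 array. The calls of Iigp1 (adjusted p up to 0.121), Irf1 (up to 0.0815), Gbp2 (up to 0.185) and Ifi47 (up to 0.0811) were lost without PBS gavage replicate 5, at changes of -1.42, -0.46, -0.64 and -0.80, those of Iigp1, Irf1 and Gbp2 also without jak12i replicate 1, those of Iigp1 and Gbp2 also without PBS gavage replicate 3 and that of Gbp2 also without jak12i replicate 5.

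Of 29 type I interferon response genes 10 fell, none rose and the median was -0.44. Irf9, the DNA-binding part of the complex that type I interferon assembles, read 8.58, 8.73, 8.78, 8.53 and 8.72 in jak12i arrays and 8.93, 8.82, 9.80, 9.18 and 10.21 in PBS gavage arrays, and fell by 0.72 ± 0.15 (adjusted p = 0.00227) without overlap. Rtp4, an interferon-induced chaperone, read 7.85, 8.28, 8.03, 8.99 and 9.03 in jak12i arrays and 9.44, 8.79, 9.53, 9.20 and 10.90 in PBS gavage arrays, and fell by 1.13 ± 0.30 with overlap. The antiviral kinase Eif2ak2, Usp18, a brake on interferon receptor signals, the pro-apoptotic factor Xaf1, the poly-ADP-ribose polymerase Parp14 and the RNA helicase Ddx60 fell by 0.72 ± 0.17, 0.82 ± 0.23, 0.91 ± 0.22, 0.62 ± 0.17 and 0.96 ± 0.30. Ifit1, the best known member of the response, was not called: it read 6.02, 5.83, 5.86, 7.23 and 7.80 in jak12i arrays and 7.19, 6.53, 7.0, 7.06 and 8.14 in PBS gavage arrays, and jak12i replicates 4 and 5 lay within the range of the PBS gavage arrays. Irf9, Eif2ak2 and Xaf1 were called in all 10 fits that left out 1 array. Without PBS gavage replicate 5 the calls of Rtp4, Usp18, Parp14 and Ddx60 were lost, at -0.80, -0.70, -0.48 and -0.65, with 3 of the 29 genes still called, and without replicates 3 and 5 none was. Usp18 and Ddx60 also lost the call without jak12i replicate 2 or 3 or PBS gavage replicate 3, and Ddx60 without jak12i replicate 1 (adjusted p up to 0.0765 and 0.168). An interferon response element was present in 10 of 21 type I response promoters (47.6%), in 7 of 14 interferon gamma promoters (50%), in 3.56% of tested genes, in 3 of 13 MHC class I (23.1%) and 1 of 8 MHC class II promoters (12.5%). Among called genes with a promoter 3 of 7 type I genes, 1 of 4 interferon gamma genes, 1 of 8 class I genes and 0 of 6 class II genes held one.

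T cell markers fell in part. Of 18 tested 4 fell (22.2%, against 8.1% of all genes), none rose and the median was -0.22. In whole skin fewer cells of a type and less RNA per cell cannot be told apart. Cd3g, a chain of the T cell receptor complex, read 7.62, 7.42, 7.48, 7.92 and 7.46 in jak12i arrays and 7.93, 8.12, 9.29, 8.21 and 9.12 in PBS gavage arrays, and fell by 0.96 ± 0.20 (adjusted p = 0.00152) without overlap. Cxcr6, a chemokine receptor of resident T cells, read 5.66, 6.19, 5.98, 6.03 and 5.84 in jak12i arrays and 6.28, 6.28, 7.89, 6.74 and 7.83 in PBS gavage arrays, and fell by 1.06 ± 0.26 (adjusted p = 0.00793). Itgae, the integrin that holds T cells in epithelium, fell by 0.82 ± 0.21, and Thy1, a marker of T cells and of other skin cells, by 1.05 ± 0.22. Thy1 read 8.86, 8.44, 8.68, 9.67 and 10.08 in jak12i arrays and 10.05, 9.88, 10.40, 9.87 and 10.79 in PBS gavage arrays, the jak12i replicates 2 and 3 being the lowest. Cd8a, the coreceptor of the cytotoxic T cells that attack the follicle, read 8.24, 8.51, 8.40, 8.29 and 8.36 in jak12i arrays and 8.20, 8.22, 8.64, 8.33 and 8.81 in PBS gavage arrays. The groups overlapped and its change was -0.08 ± 0.15 (adjusted p = 0.786).

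Of 13 cytotoxic lymphocyte genes 3 fell (23.1%, against 8.1% of all genes) and none rose, with a median of -0.32. Nkg7, a granule membrane protein, read 7.35, 7.41, 7.35, 7.37 and 7.33 in jak12i arrays and 7.47, 7.61, 9.21, 7.96 and 8.97 in PBS gavage arrays, and fell by 0.88 ± 0.23 (adjusted p = 0.00986) without overlap. Ctsw, a protease of killer cells, fell by 0.68 ± 0.17, and Klrd1, a chain of receptors on natural killer cells, by 0.67 ± 0.22. The killing genes Gzmb and Prf1 were not called at -0.30 ± 0.31 and 0.10 ± 0.16, nor was Klrk1, the receptor NKG2D, at -0.27 ± 0.20 with the lower group near background. PBS gavage replicates 3 and 5 had the highest mean of both lists, at 8.24 and 8.25 for T cell genes against 7.53 to 7.67 in jak12i arrays and 7.62 to 7.76 in the other PBS gavage arrays. Without these 2 arrays no T cell or cytotoxic gene was called and the medians were -0.05 and -0.07. Cd3g, Cxcr6, Thy1 and Ctsw kept their calls in the 10 fits that left out 1 array. Itgae and Nkg7 lost theirs without PBS gavage replicate 3 or 5, at -0.62 and -0.70 without replicate 5, and Klrd1 without any of jak12i replicates 1, 3, 4 and 5 and PBS gavage replicates 3 and 5 (adjusted p up to 0.206).

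Of 26 macrophage and monocyte genes 3 fell (11.5%), a share near the 8.1% of all genes called lower. All 26 changes were below 0, against 56.8% of all genes tested, with a median of -0.38. Ccr2, the receptor that brings monocytes out of the blood, read 6.12, 6.89, 7.02, 6.32 and 6.47 in jak12i arrays and 7.58, 6.75, 7.86, 7.32 and 8.13 in PBS gavage arrays, and fell by 0.97 ± 0.31 (adjusted p = 0.0382) with overlap. Ccl8, a monocyte chemokine, fell by 0.95 ± 0.30 and Ly86, a partner of a Toll-like receptor homologue, by 0.88 ± 0.27. Adgre1, a macrophage surface receptor, was at -0.62 ± 0.22 and was not called (adjusted p = 0.0724), although its groups did not overlap. Without PBS gavage replicate 5 none of the 26 was called, Ccr2 being at -0.81, Ccl8 at -0.67 and Ly86 at -0.67, and their calls were also lost without jak12i replicate 1 or PBS gavage replicate 1 or 3, among others. With PBS pump as the control 20 of the 26 were called lower and the median was -1.04.

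Of 16 dendritic and Langerhans cell genes 3 fell (18.8%, against 8.1% of all genes), with a median of -0.25. All 3 encode lectins of dermal dendritic cells and macrophages. Cd209e read 7.75, 7.05, 7.60, 8.39 and 8.79 in jak12i arrays and 9.92, 9.03, 10.06, 8.69 and 10.16 in PBS gavage arrays, and fell by 1.66 ± 0.37 (adjusted p = 0.00331), jak12i replicate 5 lying above PBS gavage replicate 4. Cd209a and Mgl2 fell by 0.80 ± 0.22 and 0.91 ± 0.26. Cd207, the langerin of Langerhans cells, was at -0.62 ± 0.23 and was not called. None of the 3 was called without jak12i replicates 2 and 3, at -1.26, -0.54 and -0.67. Cd209e was called in all 10 fits that left out 1 array, Cd209a was not called without jak12i replicate 2 or 3 (adjusted p up to 0.062), and Mgl2 not without jak12i replicate 1, 2 or 3 or PBS gavage replicate 1 or 5 (adjusted p up to 0.0917). No member passed the test in limma among 5 B cell and plasma cell genes and 9 mast cell genes, and none of either list had an unadjusted p under 0.05.

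Of 8 tested genes for the kinases that the drug binds and the STAT factors below them 5 fell, with a median of -0.33. Jak2 read 9.41, 9.31, 9.48, 9.45 and 9.39 in jak12i arrays and 9.83, 9.66, 9.93, 9.58 and 9.86 in PBS gavage arrays, without overlap, and fell by 0.36 ± 0.06 (adjusted p = 0.000223). Jak1 read 10.60, 10.37, 10.42, 10.67 and 10.52 in jak12i arrays and 10.97, 10.88, 10.91, 10.65 and 10.84 in PBS gavage arrays, and fell by 0.34 ± 0.09 (adjusted p = 0.0116) with overlap. Stat3, the factor of IL-6 type cytokines, read 10.14, 10.09, 10.22, 10.06 and 10.05 in jak12i arrays and 10.35, 10.56, 10.59, 10.51 and 10.72 in PBS gavage arrays, and fell by 0.43 ± 0.09 (adjusted p = 0.00102). The Jak1 probe sets went far apart: beside the one of highest signal, given above, another stood at -0.15 (adjusted p = 0.26, over all probe sets) and another was called lower at -1.94 ± 0.23 (adjusted p = 2.7e-07), with means of 7.25 in jak12i arrays and 9.19 in PBS gavage arrays. The size of the Jak1 change therefore depends on the probe set, while both Jak2 probe sets were called lower, at -0.36 and -0.33. RNA levels say nothing of kinase activity. Tyk2 fell by 0.33 ± 0.08 and Stat6, the factor of IL-4 and IL-13, by 0.32 ± 0.07, while Stat5a at -0.30 ± 0.16 and Stat5b at -0.13 ± 0.11, the factors below IL-2 and IL-15, were not called. The other probe sets of Stat3, at -0.36 and -0.24, of Tyk2, at -0.09, and of Stat6, at -0.14, were not called. Their adjusted p over all probe sets was 0.0619, 0.0593, 0.628 and 0.497. On the probe sets of highest signal the 5 calls held in the 10 fits that left out 1 array. Without jak12i replicates 2 and 3, however, 3 were called, and Jak1 at -0.26 (adjusted p = 0.137) and Tyk2 at -0.31 (adjusted p = 0.0666) were not. Without PBS gavage replicates 3 and 5 only Jak2 and Stat3 were called, and with PBS pump as the control Jak2 stood at 0.01 and Stat6 at 0.20. Jak3 and Stat4 were below the filter on low values, and 1 further member of the list was not analysed here.

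Genes that STAT factors switch on, as brakes or as other targets, did not pass the test. None of 15 tested feedback and target genes was called in limma, 1 had an unadjusted p under 0.05 (lower), and the median was -0.08. After median and interquartile range scaling the median was 0.05 and 4 genes were called higher. With PBS pump as the control, where 19.4% of all genes were called higher, 6 were called higher and the median was 0.215. Socs3, which blocks receptors of the IL-6 type, read 10.08, 9.58, 9.66, 9.65 and 10.24 in jak12i arrays and 9.22, 10.03, 10.46, 10.15 and 9.74 in PBS gavage arrays. The groups overlapped and the change was -0.08 ± 0.26. Cish, a STAT5 target, was at -0.13 ± 0.18, Socs2 at -0.12 ± 0.23, the kinase Pim1 at -0.14 ± 0.09 and the repressor Bcl6 at -0.10 ± 0.13, and Socs1, near background, at 0.07 ± 0.13. Il15 read 6.77, 6.91, 7.19, 7.18 and 7.02 in jak12i arrays and 7.24, 6.95, 7.54, 7.09 and 7.38 in PBS gavage arrays, a change of -0.23 ± 0.13 that was not called, and Il2rb, the receptor chain shared by IL-2 and IL-15, was at -0.13 ± 0.11. In the wider list of 16 cytokine receptors and ligands 2 fell (12.5%, near the 8.1% of all genes), the interferon receptor chains Ifngr2 by 0.42 ± 0.11 and Ifnar1 by 0.24 ± 0.08, the second being called in 3 of 10 fits that left out 1 array (adjusted p up to 0.16). Of 9 receptors that signal through Jak2, 3 fell (33.3%, against 8.1% of all genes). All 3 are chains of the receptors for granulocyte-macrophage colony-stimulating factor and its relatives: Csf2rb by 0.55 ± 0.14, Csf2rb2 by 0.47 ± 0.15 and Csf2ra by 0.36 ± 0.12. Csf2rb was called in all 10 such fits, Csf2ra in 3 and Csf2rb2 in 2. A STAT site, TTCNNNGAA, stood in 3 of 10 feedback promoters (30%), in 6 of 14 interferon gamma promoters (42.9%) and in 8.35% of tested genes.

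Of 30 cell division genes 8 fell, none rose, the other 22 did not pass the test and the median was -0.51. Aspm, which organises the spindle poles, read 6.32, 6.59, 6.56, 5.97 and 6.25 in jak12i arrays and 6.91, 7.59, 8.21, 7.68 and 8.28 in PBS gavage arrays, and fell by 1.40 ± 0.25, 2.64-fold lower (adjusted p = 0.00036). Ccnb2, a cyclin of mitosis, read 6.60, 7.02, 7.15, 6.37 and 6.81 in jak12i arrays and 7.21, 7.87, 8.32, 8.01 and 8.70 in PBS gavage arrays, and fell by 1.23 ± 0.25 (adjusted p = 0.00122). Neither overlapped, PBS gavage replicate 1 being the vehicle array nearest to the jak12i arrays in each. Mki67, the common marker of cycling cells, read 8.68, 9.19, 9.06, 8.25 and 8.48 in jak12i arrays and 8.72, 9.36, 10.14, 9.55 and 10.49 in PBS gavage arrays, and fell by 0.92 ± 0.26 (adjusted p = 0.0181) with overlap. Cenpf, Cdc20 and Kif23, which act at the kinetochore, at the anaphase switch and in cytokinesis, fell by 1.05 ± 0.27, 0.79 ± 0.21 and 0.60 ± 0.16. Mcm2, Mcm3, Mcm5 and Mcm6, parts of the replicative helicase, stood at 0.29 ± 0.17, 0.32 ± 0.16, 0.40 ± 0.21 and 0.18 ± 0.13, and none was called. Aspm, Ccnb2 and Cenpf were called in all 10 fits that left out 1 array, whereas Mki67, Cdc20 and Kif23 lost their calls without PBS gavage replicate 3 or 5, at -0.71, -0.66 and -0.52 without replicate 5, and Mki67 also without jak12i replicate 4. Without both of those PBS gavage arrays 1 division gene was called, Aspm, and with PBS pump as the control 4 were called higher and 1 lower.

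Further genes that rose, most of them coding for enzymes, were picked from the called genes and form no list. Inmt, an enzyme that methylates indoleamines, read 10.22, 9.56, 9.63, 9.88 and 8.98 in jak12i arrays and 8.12, 7.38, 7.62, 7.46 and 6.55 in PBS gavage arrays, and rose by 2.23 ± 0.43, 4.68-fold higher (adjusted p = 0.000824). Ces1f, a carboxylesterase, read 8.52, 7.98, 7.89, 7.90 and 7.68 in jak12i arrays and 6.01, 6.16, 6.23, 7.11 and 5.92 in PBS gavage arrays, and rose by 1.71 ± 0.31 (adjusted p = 0.000349). Gstt2, a glutathione transferase, read 8.87, 8.59, 8.64, 8.30 and 7.89 in jak12i arrays and 7.59, 6.99, 6.99, 7.48 and 6.83 in PBS gavage arrays, and rose by 1.28 ± 0.19 (adjusted p = 2.3e-05). The groups of these 3 genes did not overlap. Fmo1, a flavin monooxygenase that oxidises drugs, read 9.68, 9.21, 9.28, 9.34 and 9.49 in jak12i arrays and 8.94, 8.63, 8.25, 8.90 and 8.60 in PBS gavage arrays, and rose by 0.74 ± 0.15 (adjusted p = 0.0013). Gsta3, another glutathione transferase, Acsm3, a fatty acid coenzyme A ligase, and Cyp2e1, a cytochrome P450, rose by 1.09 ± 0.26, 1.0 ± 0.25 and 1.30 ± 0.42. Pck1, which starts gluconeogenesis and glycerol synthesis in fat, read 9.71, 9.82, 9.72, 9.67 and 9.91 in jak12i arrays and 8.95, 9.09, 7.88, 8.84 and 9.10 in PBS gavage arrays, and rose by 0.99 ± 0.30 (adjusted p = 0.0273), PBS gavage replicate 3 being nearly 1 log2 unit under the other vehicle arrays. Fam13a, which acts in fat cells and lipid metabolism, rose by 0.88 ± 0.17. All were called in the 10 fits that left out 1 array except Cyp2e1, called in 2 (adjusted p up to 0.179), and Pck1, lost without jak12i replicate 1, 2 or 5 or PBS gavage replicate 3 (adjusted p up to 0.127). Fat markers as a list gave 1 call of 15, Pck1, and a median of 0.13.

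Mylk4, a myosin light chain kinase of striated muscle, read 11.82, 10.75, 11.04, 11.39 and 10.76 in jak12i arrays and 9.88, 9.68, 8.92, 9.03 and 5.60 in PBS gavage arrays, and rose by 2.53 ± 0.72 (adjusted p = 0.0195). Its lowest array was PBS gavage replicate 5, the array low in muscle genes, and without that array the change was 1.77 (adjusted p = 0.11). It was also not called without jak12i replicate 1. Rnase2b, a secreted ribonuclease of the eosinophil family, read 8.35, 8.48, 8.36, 8.39 and 8.72 in jak12i arrays and 7.76, 7.33, 6.95, 6.21 and 7.32 in PBS gavage arrays, without overlap. It rose by 1.35 ± 0.34 (adjusted p = 0.00835) and was called in all 10 fits that left out 1 array, but with PBS pump as the control the change was -0.02. Smr2, a gene of the submaxillary androgen-regulated family, rose by 1.29 ± 0.37 and lost its call without jak12i replicate 1 or PBS gavage replicate 3 or 5 (adjusted p up to 0.124).

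Chac1 rose more than any other called gene without overlap except Mylk4. It encodes an enzyme that degrades glutathione and is a target of the integrated stress response, in which Atf4 switches on genes for amino acid supply. Chac1 read 9.72, 10.55, 10.33, 8.44 and 7.95 in jak12i arrays, against 7.19, 7.62, 6.72, 7.47 and 6.64 in PBS gavage arrays, so that every jak12i array was higher and replicates 2 and 3 the highest. It rose by 2.27 ± 0.44, 4.83-fold higher (adjusted p = 0.000734). No other gene of the 20 tested in that response was called, and the median was -0.06. Ddit3, which encodes CHOP, was at -0.16 ± 0.07, Trib3 at -0.07 ± 0.14 and Asns, asparagine synthetase, at 0.17 ± 0.10. Chac1 was called in all 10 fits that left out 1 array and at 1.58 (adjusted p = 0.0378) without jak12i replicates 2 and 3, but not when PBS gavage replicate 5 was left out with them (1.45, adjusted p = 0.0954). The element TGATGCAA, read by Atf4 with a C/EBP partner, stood in 4 of 18 promoters of the list (22.2%), against 0.788% of tested genes and 0.895% of all promoters. The Chac1 promoter is shown with that element in capitals, read here on the reverse strand.
Chac1, chr2:119350992-119351291, plus strand: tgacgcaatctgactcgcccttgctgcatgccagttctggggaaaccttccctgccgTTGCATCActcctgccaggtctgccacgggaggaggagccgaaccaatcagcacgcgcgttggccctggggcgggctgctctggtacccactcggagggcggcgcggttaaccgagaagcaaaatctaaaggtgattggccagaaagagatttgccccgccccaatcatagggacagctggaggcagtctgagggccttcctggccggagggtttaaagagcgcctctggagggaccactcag

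The rise of clock genes was set beside genes of the glucocorticoid and metallothionein response. Of 15 such genes 1 rose, Pdk4, a kinase that turns cells from sugar to fat, by 2.14 ± 0.67 (adjusted p = 0.0342), and the median was 0.21. Pdk4 read 11.74, 11.05, 11.03, 10.83 and 10.16 in jak12i arrays and 10.50, 9.14, 7.38, 11.13 and 5.95 in PBS gavage arrays, with PBS gavage replicates 3 and 5 the lowest. Its call was lost without any of jak12i replicates 1, 2 and 3 and PBS gavage replicates 3 and 5 (adjusted p up to 0.171). Fkbp5 and Tsc22d3, the standard glucocorticoid targets, were at 0.44 ± 0.25 and 0.59 ± 0.34 and were not called. Of the 15 changes 13 were above 0, against 5888 of all 13650 genes. The list mean was 10.663 to 11.18 in jak12i arrays and 10.353 to 10.676 in PBS gavage arrays, a small overlap. Whether glucocorticoids or the time of day of collection had a part in the clock changes was not tested.

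S100a9, a subunit of the alarm protein calprotectin of neutrophils and stressed epidermis, read 9.11, 9.0, 9.06, 8.21 and 7.98 in jak12i arrays and 7.43, 7.46, 7.10, 7.15 and 8.72 in PBS gavage arrays. It rose by 1.10 ± 0.27 (adjusted p = 0.00798), although PBS gavage replicate 5 reached the jak12i values. It was the 1 called member of 11 neutrophil genes, whose median was 0.20. Among 16 interleukin-1 family and alarm genes it was joined by 2 that fell, Il1rn, the interleukin-1 receptor antagonist, by 0.77 ± 0.17 and the alarmin Il33 by 0.47 ± 0.15. S100a9 and Il1rn were called in all 10 fits that left out 1 array and Il33 in 3 (adjusted p up to 0.114). Without jak12i replicates 2 and 3 the change of S100a9 was 0.86 (adjusted p = 0.104), and with PBS pump as the control Il1rn was called higher at 0.79.

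Hair and muscle genes had large mean differences that came from the arrays that stood apart. The 12 hair shaft keratins had a median of 1.56 and the 18 keratin associated proteins one of 2.55. Krt86, a hard keratin of the hair cortex, read 5.01, 12.27, 12.06, 4.96 and 4.91 in jak12i arrays and 4.98, 4.84, 4.85, 4.87 and 6.38 in PBS gavage arrays. Jak12i replicates 2 and 3 were more than 6 log2 units above the other 3, and the change of 2.66 ± 1.19 was not called (adjusted p = 0.15). Without these 2 arrays the medians were 0.06 for hair shaft keratins and -0.18 for keratin associated proteins, and that of 12 inner root sheath genes -0.16, against 1.62 with them. Krt36 and Krt84 were called higher at 0.65 ± 0.22 and 0.89 ± 0.29 but not without jak12i replicate 2 or 3, among other arrays, and stood at 0.09 and 0.06 without both. No keratin associated protein and no inner root sheath gene was called in limma, where 11 and 4 had an unadjusted p under 0.05 (higher). Of all 13650 genes 1037 were higher at that threshold. The 26 muscle genes had a median of 1.34, and 0.22 without PBS gavage replicate 5. None of them was called in limma, with 4 at an unadjusted p under 0.05 (higher), and Acta1, skeletal actin, stood at 1.28 ± 0.81 with all arrays and 0.09 without that one.

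Few genes of skin structure were called. Of 31 epidermal differentiation genes Lce3b, a late envelope protein, rose by 0.40 ± 0.13 and Klk8, a protease, fell by 0.67 ± 0.19, with a median of -0.05. Both calls were lost without PBS gavage replicate 3 or 5, at 0.40 and -0.55 without replicate 5, and Lce3b was called in 3 of 10 fits that left out 1 array. Among 21 genes of the hair matrix Sfrp1, an antagonist of Wnt signals, fell by 0.46 ± 0.12, and among 14 of the bulge and resting follicle Itga6, an integrin of basal cells, fell by 0.29 ± 0.09. Without PBS gavage replicate 5 they stood at -0.40 and -0.29, neither called, and Itga6 was called in 4 of those 10 fits and Sfrp1 in 8, jak12i replicate 1 being the other array it needed. Of 16 sebaceous genes Far2, which makes wax alcohols, rose by 0.67 ± 0.21 and Acaca, the first enzyme of fatty acid synthesis, fell by 0.53 ± 0.14, and of these Acaca was called in all 10 fits that left out 1 array and Far2 in 4. Of 21 fibroblast and collagen genes none was called in limma and the median was -0.34. An unadjusted p under 0.05 (lower) was found for 5 of them, against 2442 of all 13650 genes. Col1a1, the main collagen of dermis, was at -0.87 ± 0.37, with jak12i replicate 1 lowest in the list mean at 10.26. No gene was called in limma among 13 endothelial, 8 nerve, 8 melanocyte and 3 blood genes, where 1, 1, 1 and 0 had an unadjusted p under 0.05.

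**Figure D4:**
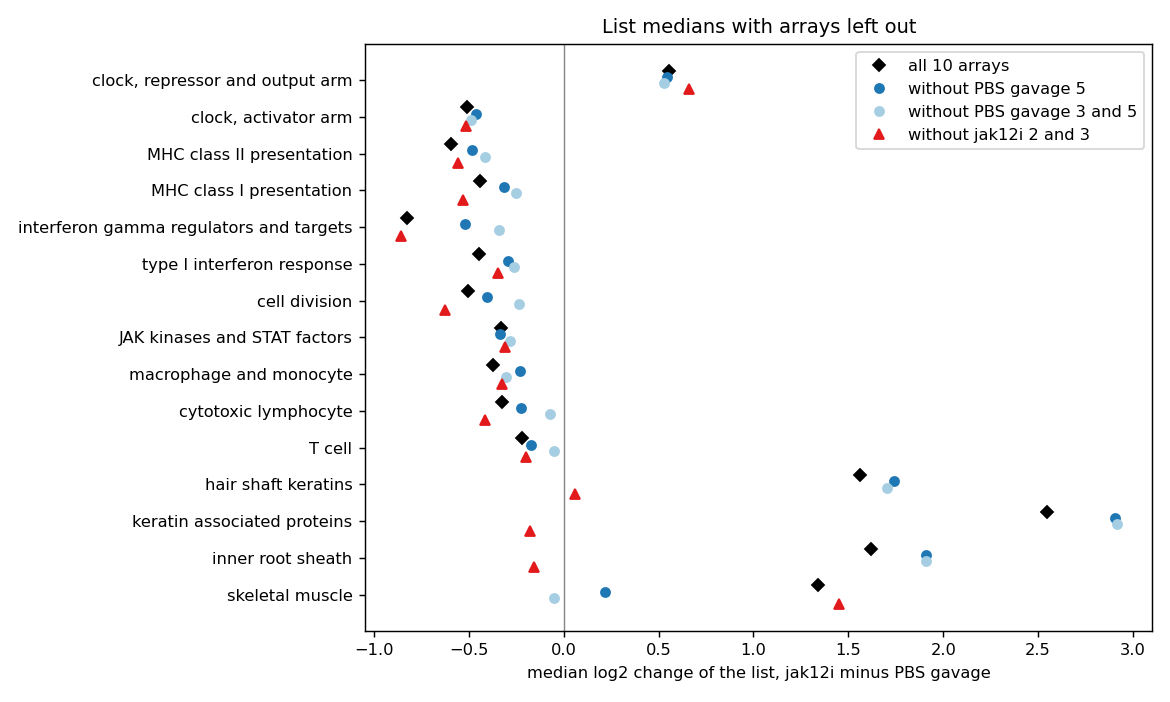
Median log2 change, jak12i minus PBS gavage (horizontal axis), of 15 gene lists with all 10 arrays (black diamonds), without PBS gavage replicate 5 (dark blue), without PBS gavage replicates 3 and 5 (light blue) and without jak12i replicates 2 and 3 (red triangles). The clock medians stay on their side of 0 in all 4 settings. So do those of the MHC, interferon, cell division, JAK and STAT, macrophage, cytotoxic and T cell lists. Without PBS gavage replicates 3 and 5 the cytotoxic and T cell medians are near 0, at -0.07 and -0.05. The hair medians drop to about 0 without jak12i replicates 2 and 3, and that of muscle drops to 0.22 without PBS gavage replicate 5.

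The falls of smallest p-value were those of Rsf1 and 6820431F20Rik. Of 35 genes for chromatin factors and other long transcripts, chosen with the earlier results known, 14 fell, none rose and the median was -0.17. Rsf1, a chromatin remodelling factor, read 6.72, 6.48, 6.72, 6.61 and 6.50 in jak12i arrays and 8.18, 7.87, 8.43, 7.51 and 7.95 in PBS gavage arrays, and fell by 1.38 ± 0.14 (adjusted p = 1.13e-07). Itsn2, a scaffold of endocytosis, read 7.62, 7.36, 7.45, 7.28 and 6.76 in jak12i arrays and 9.27, 8.65, 9.73, 8.40 and 8.98 in PBS gavage arrays, and fell by 1.71 ± 0.21 (adjusted p = 2.26e-06). Nktr, a nuclear cyclophilin, read 8.16, 7.84, 8.37, 7.91 and 7.23 in jak12i arrays and 9.02, 8.99, 9.46, 8.66 and 9.02 in PBS gavage arrays, and fell by 1.13 ± 0.15 (adjusted p = 6.45e-06). For none of the 3 did the groups overlap. The histone methyltransferase Kmt2a, the kinase Rock1, the splicing factor Srrm2 and the nuclear RNA Malat1 fell by 0.70 ± 0.10, 0.70 ± 0.11, 0.69 ± 0.10 and 0.72 ± 0.14. Outside the list, among the 15 largest falls without overlap, the zinc finger gene Zbed6, the splicing factor Acin1, Thoc2, a part of the complex that exports RNA, and Arhgap5 fell by 1.40 ± 0.17, 1.29 ± 0.17, 1.16 ± 0.15 and 1.14 ± 0.20. Prrc2c, Lbh and 6820431F20Rik, also among these 15, fell by 1.20 ± 0.14, 1.13 ± 0.16 and 1.5 ± 0.16. These 14 genes were called in all 10 fits that left out 1 array.

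The falls of the long-transcript genes differed between probe sets of 1 gene. Rsf1 fell by 1.38 on its highest-signal probe set, while another, at a mean log2 signal of 7.17 in jak12i arrays and 7.11 in PBS gavage arrays, stood at 0.06. Itsn2 had 4 other probe sets, at -0.10 to -0.46, and Nktr 3, at -0.11 to -0.42. Prrc2c fell by 1.20 on 1 probe set and stood at -1.04, -0.42, -0.17 and -0.07 on the others. Over all 1105 genes called lower, 662 had another probe set with signal: in 38.1% of these another one was called lower as well, in 217 at least 1 had the opposite sign and in 9 it was called higher. Of the 203 genes called higher 79 had another probe set, in 29 called higher as well and in 24 of opposite sign. Beside these, the middle 18S probe set and the upper quartile were lower in all jak12i arrays. The 5' 18S probe set was lower on average, at 12.291 in jak12i arrays and 12.598 in PBS gavage arrays, with overlap. The 3' 18S probe set and the 3' minus 5' differences also overlapped between groups, as given above, and the part of these values was not tested. After quantile normalization of all arrays 10 of the 35 long-transcript genes were called lower, after median and interquartile range scaling 9 lower and 3 higher. Without PBS gavage replicate 5 the number called lower was 14, and without jak12i replicates 2 and 3 it was 10.

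Tofacitinib given over the same weeks shares no array with this comparison and was set against PBS by pump. There 62 genes were higher (0.454%) and 497 lower (3.64%). Of the 1105 genes that fell with jak12i 146 also fell with jak3i, 13.2% of the jak12i falls and 29.4% of the jak3i falls, while 7 were called in the opposite direction. Of the 203 that rose 2 also rose with jak3i (0.985% of the jak12i rises and 3.23% of the jak3i rises), and 5 were called lower. MHC class II had 10 of 14 genes lower with jak3i too, with a median of -0.62, and H2-Ab1 stood at -0.72 ± 0.12. The clock did not pass: of the 13 repressor and output genes none was called with jak3i in limma and the median was 0.18, and Per2 averaged 5.83 ± 0.20 in jak3i arrays (n = 5) and 5.65 ± 0.04 in PBS pump arrays (n = 3), a change of 0.18 ± 0.31. Arntl was at -0.09 ± 0.22 and Aspm at 0.54 ± 0.29 with jak3i, neither called.

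The difference of the differences was tested directly. It was called for 323 genes (2.37%), 111 with the jak12i change above that of jak3i and 212 below it, and 200 of them were called in the jak12i comparison. The changes of jak12i and jak3i differed for Per2 by 1.78 ± 0.40 (adjusted p = 0.0157), for Per3 by 1.73 ± 0.49 (0.0486), for Arntl by -1.07 ± 0.29 (0.0424), for Clock by -0.70 ± 0.17 (0.0212) and for Chac1 by 2.88 ± 0.67 (0.0177). They also differed for 5 cell division genes, Aspm by -1.94 ± 0.39 (0.00866) and Ccnb2 by -1.58 ± 0.38 (0.0227) among them. The 5 smallest p-values belonged to Gstt2, Fmo1, Etfbkmt, Il1rn and Ccl11. Fmo1 averaged 8.59 ± 0.21 in jak3i arrays and 9.23 ± 0.05 in PBS pump arrays, a change of -0.65 ± 0.17 opposite to that with jak12i, and the difference was 1.38 ± 0.23 (adjusted p = 0.00291). Etfbkmt, a mitochondrial methyltransferase, rose by 0.44 ± 0.10 with jak12i and was at -0.48 ± 0.12 with jak3i, and Ccl11, the eosinophil chemokine eotaxin, was at 0.24 ± 0.18 with jak12i and -1.43 ± 0.21 with jak3i. For MHC class II and Cd3g the difference was not called: it was 0.15 ± 0.16 for H2-Ab1 (adjusted p = 0.681) and 0.62 ± 0.30 for Cd3g (adjusted p = 0.276). The count of 323 rested on the 3 PBS pump arrays: it was 859 without PBS pump replicate 1, 85 without replicate 2 and 13 without replicate 3. It was 121 without PBS gavage replicate 3 and 196 without jak12i replicate 2.

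The vehicles themselves differed, with 5079 genes called between PBS gavage and PBS pump (37.2%), so that route or another difference between these groups enters any comparison across them. Per2 did not differ by the test between the vehicles, at 0.35 ± 0.31 for PBS gavage minus PBS pump (adjusted p = 0.386), and Chac1 stood at -1.0 ± 0.50 (adjusted p = 0.116). Against PBS pump the jak12i change was 2.30 for Per2, 2.55 for Per3 and -0.80 for Arntl, all 3 called, whereas for Clock it was -0.25 (adjusted p = 0.133) and for Npas2 -0.70 (adjusted p = 0.0625).

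Week 13 gave a second comparison of jak12i with PBS gavage, on other arrays. There 1580 genes were higher (11.6%) and 1407 lower (10.3%). Of the 203 week 6 rises 43 were called higher at week 13, 21.2% of them and 2.72% of the week 13 rises, and 9 were called lower. Of the 1105 falls 156 were called lower, 14.1% of them and 11.1% of the week 13 falls, and 54 were called higher. Interferon gamma genes had 20 of 21 members lower at week 13 with a median of -2.15, type I interferon genes 22 of 29 lower, cytotoxic genes 12 of 13 and cell division genes 24 of 30. Cxcl9 averaged 8.08 ± 0.91 in jak12i arrays and 12.53 ± 0.55 in PBS gavage arrays at week 13 (SD, n = 3 each), and Cd8a 7.12 ± 0.26 in jak12i arrays and 9.0 ± 0.33 in PBS gavage arrays.

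The week 13 change differed from the week 6 change for 2204 genes (16.1%), 1445 with a positive and 759 with a negative difference. It was 1091 without week 13 PBS gavage replicate 3. For Cd8a the difference, week 13 minus week 6, was -1.80 ± 0.25 (adjusted p = 2.2e-05), and for Gzmb -3.45 ± 0.51 (adjusted p = 3.32e-05). Clock genes differed between the weeks as well, Per2 by -1.63 ± 0.43 (adjusted p = 0.00838), Cry1 by -0.85 ± 0.17, Arntl by 1.14 ± 0.31 and Clock by 0.82 ± 0.18 (adjusted p = 0.00184). Per2 at week 13 averaged 7.32 ± 0.78 in jak12i arrays and 7.0 ± 0.36 in PBS gavage arrays, a change of 0.32 ± 0.34 that was not called, whereas Cry2 at 0.67 ± 0.14 was called higher. As a list, the 13 repressor and output genes had a week 13 median of 0.56, beside 0.56 at week 6. At week 13, 2 of them were called higher and 1 lower, and the difference between weeks was called for 3. The 6 activator genes had a week 13 median of 0.05 with none called, and the difference was called for 3. Rsf1, with the smallest p-value among the falls of the long-transcript list, was at -0.00 ± 0.18 at week 13, and its difference was 1.38 ± 0.23 (adjusted p = 0.000135). Ces1f, Gsta3, Fam13a, Cyp2e1, Fmo1, Gstt2 and Pck1 were called higher at both weeks, with week 13 changes of 2.17 ± 0.40, 1.60 ± 0.34, 1.21 ± 0.22, 2.89 ± 0.55, 0.69 ± 0.19, 0.73 ± 0.24 and 2.66 ± 0.38. The 5 smallest p-values of the difference belonged to Pdzrn4 at 2.62 ± 0.28, Klb, the coreceptor for fibroblast growth factor 21, at 2.75 ± 0.34, Sphkap at 1.62 ± 0.21, 2610528A11Rik at -5.43 ± 0.70 and Upb1 at 2.03 ± 0.27. Of these Klb fell at week 6, by 1.02 ± 0.21 (adjusted p = 0.00124), and the other 4 were not called there. Spread of values also differs between weeks as batches would, and week and batch cannot be told apart. For clock genes the time of day of collection, which is not given, cannot be told apart from week or treatment either.

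**Figure D5:**
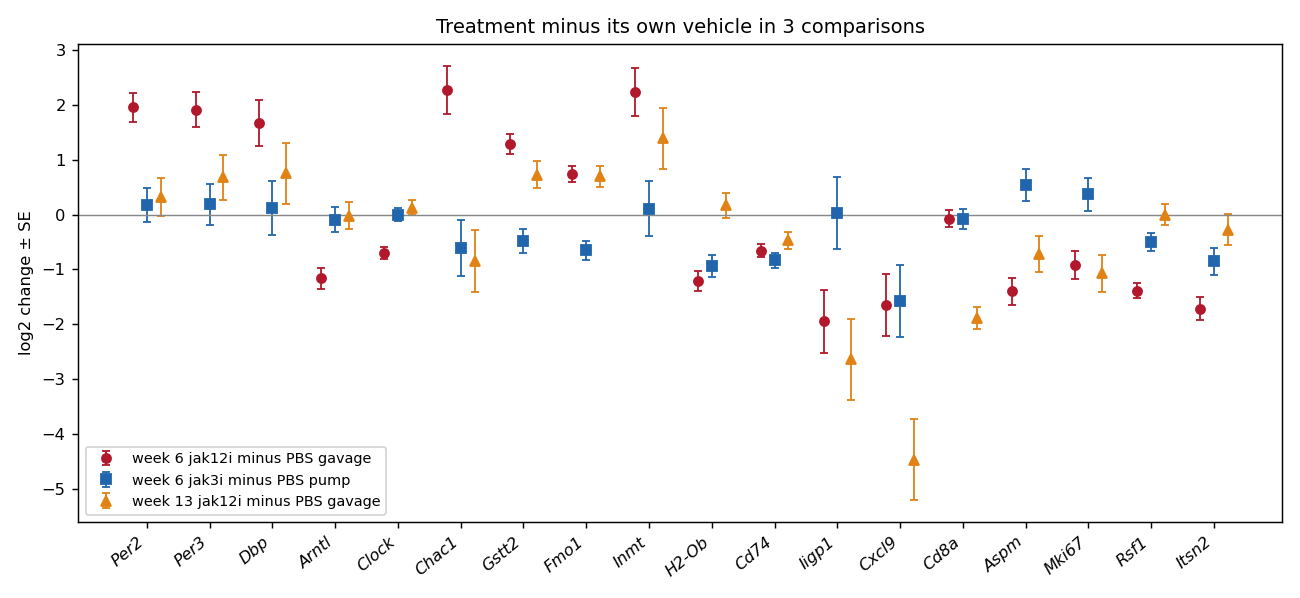
Log2 change ± SE (vertical axis) of 18 genes in 3 comparisons of a treatment with the vehicle set against it here: jak12i minus PBS gavage at week 6 (red circles, n = 5 and 5), jak3i minus PBS pump at week 6 (blue squares, n = 5 and 3) and jak12i minus PBS gavage at week 13 (orange triangles, n = 3 and 3). No label ties an agent to a route. Per2, Arntl and Chac1 move away from 0 with jak12i at week 6 and lie nearer to 0 in the other 2, Cd74 lies below 0 in all 3, and Cd8a and Cxcl9 are lowest at week 13.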

How the data were processed

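Gene expression was read with Affymetrix arrays from skin RNA that had been amplified from its 3' end, per the labels' protocols. The authors deposited log2 values of 45101 probe sets in 48 arrays, made with RMA (background correction, quantile normalization and probe summary) per the submitters' processing notes, whose version and whether all arrays were normalized together are not given in the sources used here. The scanner files were not used here. Groups were taken from titles, and 1 array with conflicting labels was placed in no group.

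A probe set was named through the platform annotation: 34958 named 1 symbol, 932 several and 9211 none, and only those with 1 were used, 34754 of them matched through the Entrez identifier. They gave 18194 genes, 9012 with more than 1 probe set, and each gene was read from the probe set of highest mean signal. The 13650 genes above the median of all values (6.7) in at least 3 arrays were tested. A linear model with 1 mean per group was fitted over the 47 placed arrays with limma 3.58.1 in R 4.3.3 (34 residual degrees of freedom), with Benjamini-Hochberg adjustment over all genes tested and calls at 0.05. The same fit gave the differences between comparisons. A group mean under 5.52, the highest 25th percentile of the 10 arrays, is called near background. Arrays give no read depth, and the number of arrays, 5 per group, limits the precision.

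The arrays, genes and lists were chosen with earlier results of these data known, so lists are given by counts and medians and carry no test of their own. Named genes were the 15 largest rises and 15 largest falls called without overlap, up to 6 called members of smallest p in each list, 31 genes of the JAK pathway, T cells, interferon, clock and controls, the 5 smallest p-values of each test of a difference, and called members that went against their list. Further list members were named after their values were seen. In data simulated for this comparison over 13650 genes the fit found 80.6% of genes changed by 0.585 on the log2 scale. It found 97% of those changed by 1 and 97% of those changed by 2, with 8 false calls. The simulated data were not shown to hold arrays that stood apart or group differences in technical values, as the real arrays did. These figures therefore describe the simulated data only and give neither the power nor the number of false calls in the real arrays. Same-numbered arrays of the groups were not paired: the correlations of their deviations from the group means were 0.232, -0.242, 0.041, 0.089 and -0.224 for replicates 1 to 5. Alternatives covered normalization, filters, probe set choice, arrays in the fit, array weights, a replicate block, covariates, other control arrays and arrays left out. Promoters are from RefSeq, build GRCm38.p6.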

Additional observations from a re-analysis of the deposited data

Results flagged for a closer look

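Within the groups of 5 arrays, 176 sets of values (88 genes or list means in each group) were searched for an array far from the others by Dixon's test, and 17 were found where chance gives about 1 in 20. Of these, 8 were PBS gavage replicate 5. That array had list means of 7.13 for skeletal muscle (nearest array of its group 11.19), 6.92 for hair shaft keratins (6.2), 7.27 for keratin associated proteins (5.52) and 8.63 for the inner root sheath (6.93), and gene values of 7.21 for Per3 (7.9), 5.6 for Mylk4 (8.92), 8.72 for S100a9 (7.46) and 6.38 for Krt86 (4.98).

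Among the other PBS gavage arrays, replicate 4 was at 8.77 for the clock activator list (nearest 8.92) and at 7.11 for Ces1f (6.23), replicate 3 at 8.01 for Cry1 (7.62) and at 7.88 for Pck1 (8.84), and replicate 1 at 9.17 for the STAT feedback list (9.36). Among the jak12i arrays, replicate 1 was at 9.19 for MHC class II (nearest 9.37) and at 10.26 for fibroblast and collagen genes (10.79), and replicate 4 at 7.92 for Cry1 (8.3) and at 10.26 for sebaceous genes (10.49). The Cry1 groups overlapped through these arrays alone.

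The effect of jak12i over PBS gavage differed between week 13 and week 6 for 2204 genes (16.1%) in limma's test, week 13 minus week 6. The 17 given here are some, not all, of those whose week 6 values were read array by array. Further named genes, such as Gzmb and Klb, also differed, as given above. The difference was positive for Cd209e (2.36), Pck1 (1.67), Npas2 (1.53), Itsn2 (1.44), Rsf1 (1.38), H2-Ob (1.38), Arntl (1.14), Nktr (1.02), Clock (0.82) and Jak1 (0.51). All of these but Pck1 fell at week 6. It was negative for Chac1 (-3.11), Cxcl9 (-2.81), S100a9 (-2.29), Rnase2b (-1.81), Cd8a (-1.8), Per2 (-1.63) and Cry1 (-0.85). Of these, Cxcl9 and Cd8a were not called at week 6 and the other 5 rose there. In the hair lists the difference was called for all 12 hair shaft keratins, Krt86 among them. It was also called for 17 of 18 keratin associated proteins and all 12 inner root sheath genes. Their week 13 medians were -3.26, -4.32 and -3.95, and their week 6 medians rested on jak12i replicates 2 and 3, as given above.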

How the results depend on the processing

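The count of 1308 genes called (203 higher, 1105 lower) depended on the arrays and the scaling, and the cause was not tested. It was 293 (124 higher, 169 lower) after quantile normalization of the 10 arrays fitted alone, 564 (106 and 458) in a fit of these 10 arrays, 860 (lower 699) in a fit of the 18 week 6 arrays and 2185 (1489 and 696) after median and interquartile range scaling. It was 709 (109 and 600) without jak12i replicates 2 and 3, 451 (62 and 389) without these and PBS gavage replicate 5, and 3975 (2651 higher) with PBS pump as the control. Genes with at least 1 probe set called numbered 2337. Quantile normalization of all arrays gave 412 higher and 557 lower, array weights 360 higher, the hair shaft list as a covariate 320 higher, and both vehicles together 623 lower. Leaving out 1 array in turn gave 773 to 1414 genes, 96 to 267 higher and 677 to 1174 lower. The replicate block gave 74 genes (14 and 60), but the replicate numbers did not pair the arrays. The following alternatives were chosen after seeing the data: leaving out PBS gavage replicates 3 and 5 gave 468 (65 and 403), and jak12i replicates 2 and 3 counted as 1 array 962.

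The difference from jak3i, 323 genes, became 699 after median and interquartile range scaling and 114 without the 3 arrays that stood apart, and ranged from 13 to 859 with 1 array left out. The difference between weeks, 2204 genes, became 1410 without those 3 arrays and ranged from 1091 to 2427. The vehicle comparison, 5079 genes, ranged from 3292 (without PBS pump replicate 3) to 5138.

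Directions turned for single genes. With PBS pump as the control the log2 change stood as follows: Il1rn at 0.79, Pim1 at 0.41, Stat6 at 0.20, H2-DMb2 at 0.080, Itga6 at 0.055, Nlrc5 at 0.034, Klrd1 at 0.031, Jak2 at 0.013, Kif23 at 0.0035, Rnase2b at -0.022, Etfbkmt at -0.079, Lce3b at -0.17, Pdk4 at -0.18 and Ccl11 at -0.66. On the probe set of the gene with the highest change the values were Npas2 at 0.17, Eif2ak2 at 0.14, Ifngr2 at 0.12, Arhgap5 at 0.063, Rsf1 at 0.059, Rtp4 at 0.052, H2-DMb2 at 0.042 and Lbh at 0.024, and on that with the lowest change Tef at -0.034. After median and interquartile range scaling B2m was at 0.28. Of 110 named called genes 68 were called in all 10 fits that left out 1 array and 93 after quantile normalization of all arrays. These fits kept the spread pooled over all groups. In a fit of the 10 arrays alone 59 of the 110 were called, and 44 when the 10 arrays were also quantile normalized. Probes near background, such as Ifng and Socs1, limit what the arrays can show of those genes.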

Other observations

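With jak12i at week 13, 12 of 15 adipocyte genes, 8 of 16 sebaceous genes, 9 of 13 endothelial genes and 6 of 8 nerve genes were higher than with PBS gavage (background 11.6% of genes tested), whereas at week 6 these lists gave 1, 1, 0 and 0 higher (background 1.49%). With jak3i at week 6, 15 of 26 macrophage and monocyte genes and 17 of 29 type I interferon genes were lower than with PBS pump (background 3.64%), against 3 of 26 and 10 of 29 with jak12i over PBS gavage (background 8.1%). The differences between these counts were not tested.

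Some of the smallest p-values of the week 6 jak12i comparison belonged to genes outside the lists, named here after their values were seen. Eif4e3, which binds the cap of messenger RNA, fell by 1.11 ± 0.13 (adjusted p = 8.62e-07), Anapc16, a subunit of the anaphase-promoting complex, by 0.69 ± 0.08, Rala, a small GTPase, by 0.65 ± 0.08 and Ubn1, a histone chaperone subunit, by 0.77 ± 0.10, all without overlap between the groups. At week 13 they stood at -0.08 ± 0.17, 0.20 ± 0.11, -0.21 ± 0.10 and -0.05 ± 0.12, and none was called.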
